A study of Mus musculus with 20 samples.

Results

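The genes described here encode the urea cycle and the enzymes that break down amino acids in liver. They were chosen by name, as 44 genes of these pathways, and each was read from the probe set with the highest mean among those that the array annotation ties to that gene alone. Such a probe set was found for 41 of the 44 genes, and all 41 lay among the 11728 genes tested of 18193 genes with a probe set of their own. The serine and threonine enzymes Sds and Sdsl and the liver glutaminase Gls2 had no such probe set and were not used here.

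Liver RNA came from male mice of the inbred C57BL/6J strain, 8 weeks old by their labels. In the MSXH group, 10 mice ate for 4 weeks a diet with 45 kcal% of its energy as fat to which 0.05% of a maple syrup extract had been added. In the HFD group, 10 mice ate the same high-fat diet without extract. All 20 mice were fasted for 16 h and killed on day 30, and each gave 1 array, so every level below is that of a fasted, fat-fed liver. Whole liver was used, so fewer cells of a type and less RNA per cell cannot be told apart. Groups with a low-fat diet or with less extract, which the protocol names, were not analysed here.

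Amino acid breakdown frees nitrogen as ammonia or passes it to glutamate and aspartate, and the urea cycle turns it into urea for excretion. Most of this work is done by hepatocytes, and it rises with fasting and glucocorticoids, when amino acids feed glucose synthesis. The urea cycle enzymes and Hal are known to be densest in hepatocytes near the portal vein (periportal), whereas Oat is known to be densest near the central vein (pericentral), beside glutamine synthetase.

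The deposited values are log2 levels that differ very little between arrays. Over the 20 mice the SD of a member ranged from 2.18e-06 in Got2 to 0.0228 in Tat, and the median SD over all tested genes was 1.48e-05. Such values cannot be read as fold changes. Differences between the diets are therefore given as Hedges' g, the MSXH mean minus the HFD mean in units of the pooled SD with a small-sample correction. The level in a mouse is given in SD units, as its distance from the 20-mouse mean of that gene. The order of SDs between genes could not be read either: the 3 probe sets of Tdo2 followed each other over the mice (r = 0.930 and 0.933 with the set used), yet the SDs of the other sets were 26.2 and 52.3 times that of the set used. Probe sets of the same gene did not always follow each other so closely. For 19 pairs of a used set with another set above the filter on mean level, the median r was 0.622. It ran from 0.0776 in Got2 to 0.981 in Gpt2.

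Of the promoters in the RefSeq table (build GRCm38.p6), which holds 1 start for each gene, 33 of the 41 members had an entry. The 250 bases before that start are shown for 4 of them. Tat, Gpt2 and Hpd were called with each other over the mice (r = 0.875 for Gpt2 and Tat, 0.766 for Gpt2 and Hpd and 0.652 for Tat and Hpd), and Aldh4a1 was called below 0 with Gpt2 (-0.660), by the test described further on. They lie on the plus strand at chr8:109990186-109990435 (Tat), chr8:85492326-85492575 (Gpt2) and chr4:139622644-139622893 (Aldh4a1), and on the minus strand at chr5:123182724-123182973 (Hpd). The whole gene of Tat is annotated at chr8:109986078-109999804, so its stretch lies inside the gene's span, and that of Aldh4a1 at chr4:139622871-139649691, which takes in the end of its stretch. Capitals mark the CCAAT box, read as CCAAT or ATTGG, and each sequence is written along the gene's own strand.
Tat: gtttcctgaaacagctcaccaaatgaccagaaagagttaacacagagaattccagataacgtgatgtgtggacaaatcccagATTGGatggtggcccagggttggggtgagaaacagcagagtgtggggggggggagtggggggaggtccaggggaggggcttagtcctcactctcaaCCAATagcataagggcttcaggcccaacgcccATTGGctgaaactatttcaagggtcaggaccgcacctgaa
Gpt2: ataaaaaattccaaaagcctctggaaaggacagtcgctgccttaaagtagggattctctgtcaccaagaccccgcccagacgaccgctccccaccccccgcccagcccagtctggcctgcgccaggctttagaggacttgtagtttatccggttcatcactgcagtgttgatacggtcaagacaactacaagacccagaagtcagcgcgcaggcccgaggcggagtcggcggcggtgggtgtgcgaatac
Hpd: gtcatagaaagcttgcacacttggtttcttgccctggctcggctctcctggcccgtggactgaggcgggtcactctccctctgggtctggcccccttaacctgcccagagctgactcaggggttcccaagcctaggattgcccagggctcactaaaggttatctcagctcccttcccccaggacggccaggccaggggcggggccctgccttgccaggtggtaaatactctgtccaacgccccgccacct
Aldh4a1: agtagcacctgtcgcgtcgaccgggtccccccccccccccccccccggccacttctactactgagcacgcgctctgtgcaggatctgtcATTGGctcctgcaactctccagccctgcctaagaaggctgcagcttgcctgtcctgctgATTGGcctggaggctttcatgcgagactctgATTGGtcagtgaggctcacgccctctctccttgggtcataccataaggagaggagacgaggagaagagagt
Both Tat and Aldh4a1 held 3 CCAAT boxes in these bases, and Gpt2 and Hpd held none. The box was present in 19 of the 33 member promoters and in 33.8% of 32851 promoters of the same length in the table. It was added to the search after these promoters had been read. The other motifs searched on both strands were AGAACA (glucocorticoid receptor), TTGCNNAA (C/EBP), TGACG (CREB) and CAAAGTCCA (HNF4), and none of their letters occurred in the 4 promoters shown. They occurred in 4, 3, 2 and 0 of the 33 member promoters and in 16.1%, 9.56%, 17.8% and 0.384% of all promoters, in that order. The motifs do not overlap each other in the sequences shown.

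The comparison of the diets asks whether the extract altered these genes in high-fat feeding. No member passed the test. With limma and Benjamini-Hochberg adjustment over all genes, 0 of 41 members were called, against 0% of the 11728 tested genes, and the smallest adjusted p was 0.9998. At an unadjusted p under 0.05 there were 3 members, Oat, Kynu and Glud1. That is 7.32% of the members, against 3.62% of all tested genes (425 genes). With shifted medians, every array moved to a common median of the tested genes, there were 0, and with quantile normalization 0 of 26. The permutation test of the difference in means also called 0 members after adjustment, with 3 at an unadjusted p under 0.05.

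Oat, the ornithine aminotransferase that links the urea cycle intermediate ornithine to glutamate and proline, was the member that stood lowest in MSXH livers. In the order of replicate number its level in SD units was 0.0127, -2.03, -0.553, -1.51, -0.288, -0.717, -1.42, 0.454, 0.132 and 0.0319 in MSXH mice. In HFD mice it was 0.461, 0.102, -1.29, 0.601, 1.21, 0.705, 0.278, 1.23, 1.69 and 0.897. No MSXH mouse reached the HFD median, although the groups overlapped, and HFD mouse 3 lay far under the other HFD mice. The difference was g = -1.38 (95% interval -2.35 to -0.401, n = 10 per group), with an unadjusted p = 0.0041 by limma, an unadjusted p = 0.00528 by permutation and an adjusted p of 0.9998. Oat is read by a single probe set of its own on this array.

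Kynu, the kynureninase of tryptophan breakdown, was also lower in MSXH livers, with g = -1.03 (95% interval -1.96 to -0.0956, unadjusted limma p = 0.0247). Its level ran from -1.86 over a median of -0.496 to 0.839 in MSXH mice, and from -0.973 over 0.531 to 2.26 in HFD mice, in SD units. A single MSXH mouse, number 10, lay above the HFD median. The other Kynu probe set, which had r = 0.489 with the one used over the mice, gave g = -0.896. With shifted medians, g was 0.171 for Kynu and -0.236 for Oat.

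Glud1, the mitochondrial glutamate dehydrogenase that releases ammonia from glutamate, was higher in MSXH livers, with g = 1.01 (95% interval 0.075 to 1.94, unadjusted limma p = 0.0318). Its level ran from -1.39 over a median of 0.653 to 1.68 in MSXH mice, and from -1.54 over -0.384 to 0.470 in HFD mice. Levels above the HFD median were found in 8 of the 10 MSXH mice. The other Glud1 probe set, which followed the one used over the mice (r = 0.911), gave g = 0.575. With shifted medians, g of Glud1 was 0.628.

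**Figure D1:**
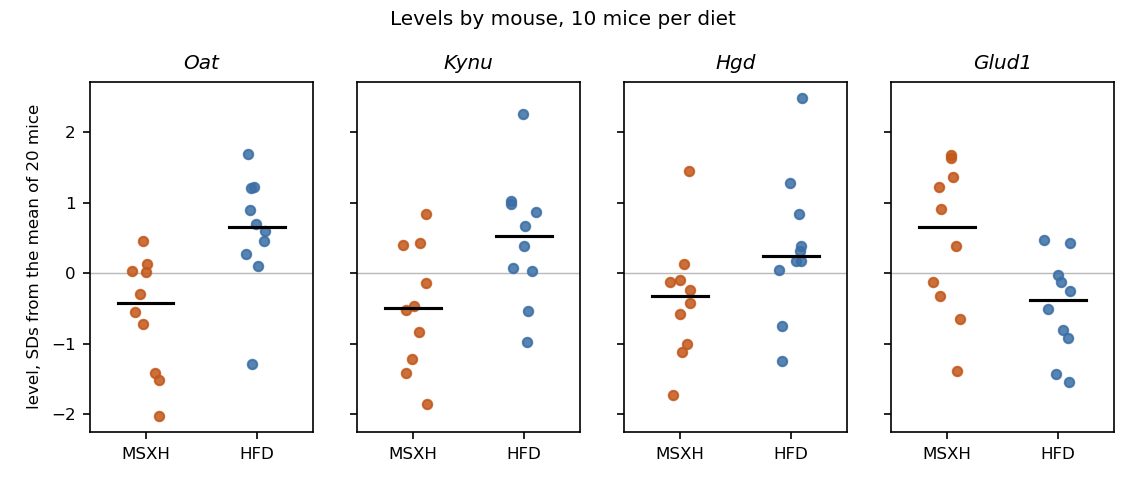
Level of 4 genes in each of 10 MSXH and 10 HFD mice, in SDs from the mean of the 20 mice (points; the black bar is the group median). No MSXH mouse lies above the HFD median for Oat, 1 lies above it for Kynu and for Hgd, and 8 lie above it for Glud1. Hgd is shown as the member with the next smallest p.

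The other 38 members had a 95% interval of g that held 0. Lower means in MSXH livers were found for 29 of 41 members (70.7%), against 50.6% of all tested genes, and the median g was -0.137, against -0.0069 for all tested genes. This split depended on how the arrays were scaled. With every array moved to a common median, 7 of 41 members (17.1%) and 3.03% of tested genes were lower. With quantile normalization, 16 of the 26 members that still differed between arrays (61.5%) and 48.8% of tested genes were lower.

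All 6 measured enzymes of the urea cycle had lower means in MSXH livers in the values as deposited, whereas 2 of 6 were lower with shifted medians and 2 of 3 with quantile normalization. None passed the test, and their intervals all held 0. For Cps1, which makes carbamoyl phosphate from ammonia and commits it to the cycle, g was -0.00997 (95% interval -0.886 to 0.867). For Nags, which makes the activator of Cps1, it was -0.525. Otc, which joins carbamoyl phosphate to ornithine, had g = -0.206, and its other probe sets gave -0.822 and -0.0887. Ass1 and Asl, which build and split argininosuccinate, had -0.316 and -0.137. Arg1, the arginase that releases urea, had -0.0376. The interval of Cps1 spans differences of nearly the pooled SD in either direction.

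**Figure D2:**
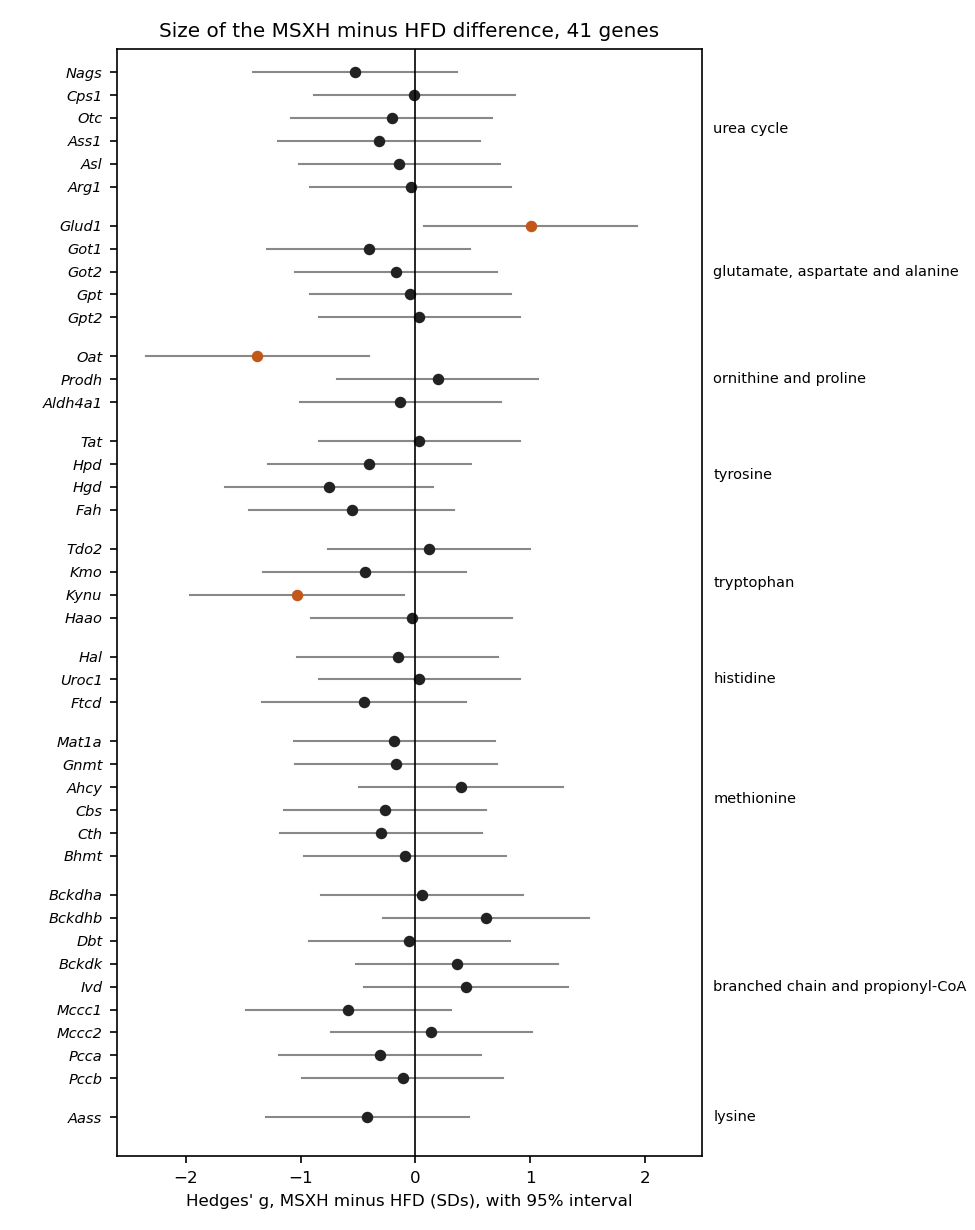
Hedges' g of 41 genes (points) with its 95% interval (lines), MSXH minus HFD in units of the pooled SD, grouped by pathway. Orange points mark an unadjusted limma p under 0.05. Intervals of 38 genes cross 0. Oat and Kynu lie to the left of it and Glud1 to the right.

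Among the enzymes that exchange amino groups, the cytosolic and mitochondrial aspartate aminotransferases Got1 and Got2 had g of -0.405 and -0.167, and the alanine aminotransferases Gpt and Gpt2 had -0.0436 and 0.036. In the tyrosine pathway, Hgd, the homogentisate dioxygenase, had g = -0.751 (95% interval -1.66 to 0.156, unadjusted limma p = 0.0905). The other probe set of Hgd gave g = -0.227. The last enzyme of the tyrosine pathway, Fah, had -0.555, Hpd had -0.400 and the entry enzyme Tat had 0.035. These 4 genes lay on both sides of 0 as deposited and all above it with shifted medians, and none passed.

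Tdo2, the entry enzyme of tryptophan breakdown, had g = 0.119, and its other probe sets gave -0.0439 and -0.0885. Kmo had -0.442 and Haao -0.0311. In histidine breakdown, Hal had -0.152, Uroc1 0.0339 and Ftcd -0.446. Among the 6 methionine and homocysteine genes, g ran from -0.299 in Cth, the cystathionine gamma-lyase, to 0.399 in Ahcy, the S-adenosylhomocysteine hydrolase, with 5 of 6 lower in MSXH livers as deposited and 1 of 6 lower with shifted medians. Of the branched chain and propionyl-CoA genes, 5 of 9 were higher in MSXH livers as deposited, 9 of 9 with shifted medians and 4 of 9 with quantile normalization. Among those 5, Ivd had g = 0.443, and its other probe set gave -0.335. Mccc2 had 0.139, and its other probe sets gave 0.139 and -0.117. The other probe sets of Bckdk, Mccc1 and Pcca kept the sign of the set used. Over the 9 genes, g ran from -0.583 in Mccc1, a subunit of the leucine pathway's methylcrotonyl-CoA carboxylase, to 0.616 in Bckdhb, a subunit of the branched chain dehydrogenase. Its kinase Bckdk, which switches the complex off, had g = 0.365. The proline oxidase Prodh had 0.194, Aldh4a1, which finishes proline breakdown, had -0.129, and the lysine enzyme Aass had -0.418.

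Other genes of amino acid breakdown, from a list of 50 of which 41 were tested, split as 17 higher and 24 lower in MSXH livers with none past the test, where 50.6% of all tested genes were lower. With shifted medians 34 of 38 were higher and 4 lower, and with quantile normalization 11 of 28 were higher and 14 lower. The 3 at an unadjusted p under 0.05 were all lower. They were Aldh7a1 of lysine breakdown (g = -1.27), Dld, the E3 subunit shared by the branched chain dehydrogenase and other complexes (-0.983), and Aldh6a1 of valine breakdown (-0.978). No gene of the lists for amino acid transport (11 tested), regulators (15), amino acid synthesis (6), pericentral markers (10) or periportal markers (6) reached an unadjusted p under 0.05.

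Hepatocyte markers stood at 13.4 to 14.7 log2 in the 6 of 8 listed genes tested. Endothelial markers were higher in MSXH livers in 6 of 6 genes as deposited (median g = 0.454), 6 of 6 with shifted medians and 3 of 6 with quantile normalization. Kupffer cell markers were lower in 7 of 8 as deposited (median g = -0.170), 3 of 8 with shifted medians and 4 of 8 with quantile normalization. Of all tested genes, 50.6%, 3.03% and 48.8% were lower, in that order. No gene of either list reached an unadjusted p under 0.05. The 3' minus 5' signal of the actin control, a measure of RNA quality, had g = 0.491 (95% interval -0.398 to 1.38). The array median, taken over the tested genes, had g = -0.590 (-1.49 to 0.305). The part of these in the differences above was not tested.

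Beside the diets, the design allows the 20 fasted mice to be compared with each other. Many of these enzymes rose and fell together over the mice, in both diets. Each member was correlated with every tested gene (479987 pairs), with 100000 permutations of the mice and Benjamini-Hochberg adjustment over all pairs. Of the 820 pairs among members, 167 (20.4%) were called at an adjusted p under 0.05, against 4.06% of all member-by-gene pairs. Of these, 163 had r above 0, against a background of 2.04%, and 4 had r below 0, against 2.02%. The smallest p that these permutations can give is 1e-05, which corresponds to an adjusted p of 0.00289.

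The 167 pairs, which were picked over these same mice, had the same sign within the MSXH mice (median r = 0.774) and within the HFD mice (median r = 0.833). Over all 820 pairs the median r was 0.168 within MSXH mice and 0.406 within HFD mice. With 10 mice, no pair passed the adjustment within a diet, where the smallest adjusted p was 0.0917 in MSXH mice and 0.0857 in HFD mice. At an unadjusted p under 0.05, 250 of the 820 pairs passed within MSXH mice (background 10.9%) and 231 within HFD mice (background 11.8%). By Spearman's rho 118 pairs were called (background 2.76%), and 109 were called by both measures. Scaling moved the count. With shifted medians 475 pairs were called, but so were 66.6% of all member-by-gene pairs, and with quantile normalization 18 of 325 pairs were called (background 2.71%). Removing the group means gave 174 pairs (background 4.04%), and the probe set of largest SD gave 161 (background 4.41%). For each pair, the 2 mice farthest from the median of its first gene, in the order of the pathways, were also left out. In a pair of a member with another gene, the member's median was used. The second gene did not enter this choice, so a mouse far off in that gene alone was kept. Without these 2 farthest mice, 164 of the 167 pairs kept an absolute r above 0.5.

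**Figure D3:**
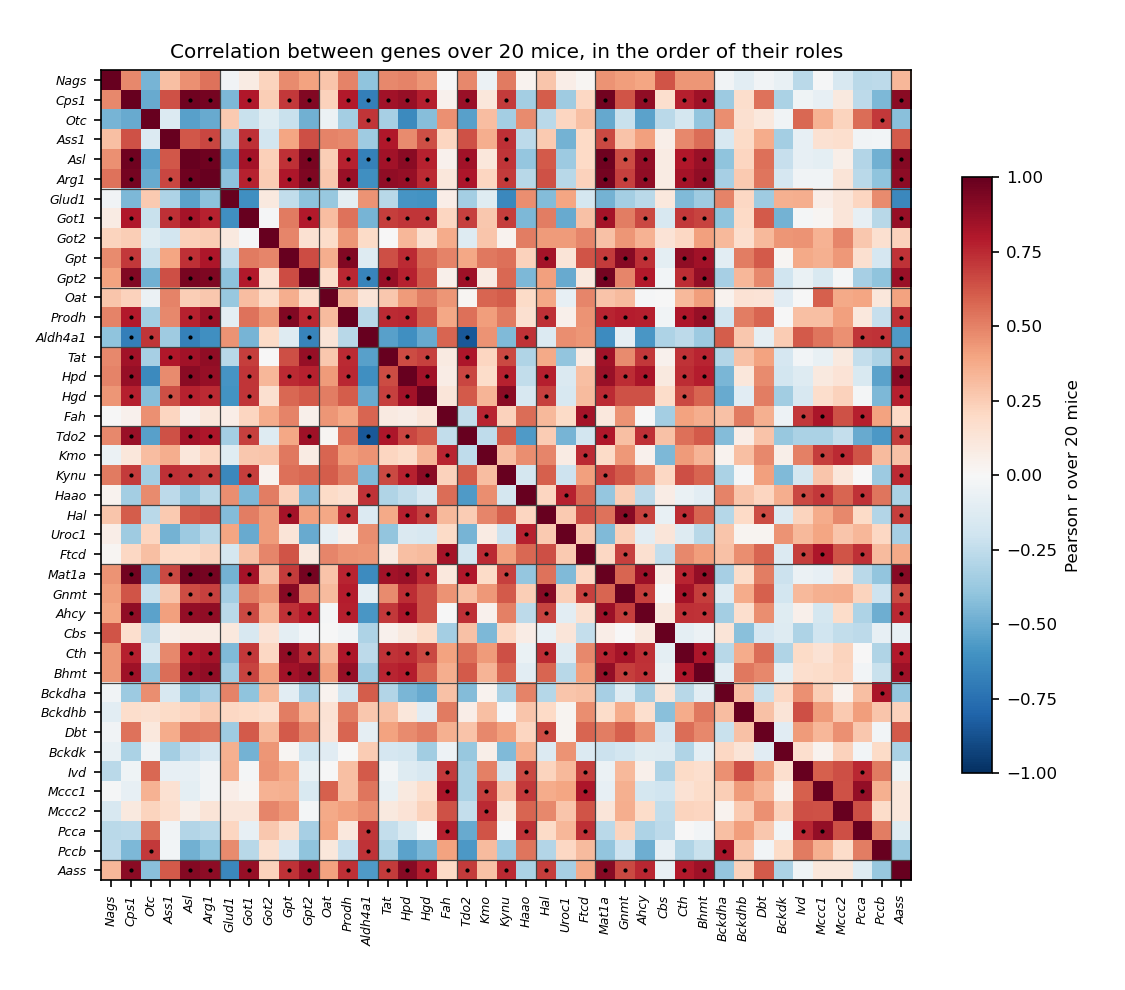
Pearson r over the 20 mice for every pair of the 41 genes (colour, red above 0 and blue below 0), in the order of their pathways. Dots mark the 167 pairs with an adjusted p under 0.05, and lines separate the pathways. A band of red joins Cps1, Asl, Arg1, Gpt2, Tat, Hpd, Mat1a, Ahcy and Aass, and the branched chain genes at the lower right are mostly pale.

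The tightest group joined Cps1, Asl and Arg1 of the urea cycle with Mat1a and Gpt2. Mat1a makes S-adenosylmethionine, the liver's methyl donor, and Gpt2 is the mitochondrial alanine aminotransferase. Their 10 pairs had r between 0.927 and 0.976. The highest was that of Asl and Mat1a (r = 0.976, rho = 0.935, both at the permutation floor). It was 0.969 within MSXH mice, 0.989 within HFD mice and 0.956 without the 2 farthest mice. Cps1 and Asl followed with r = 0.972 (rho = 0.922), then Asl and Arg1 with 0.971 (rho = 0.910) and Cps1 and Mat1a with 0.965 (rho = 0.905). Cps1 and Arg1 had r = 0.961 (rho = 0.922), and Arg1 and Mat1a had 0.959 (rho = 0.881). Within either diet and without the 2 farthest mice, these 6 pairs had r of at least 0.912. With shifted medians, the pair of Cps1 and Asl had r = 0.0157 and no longer passed.

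In SD units, the lowest mice for these 5 genes were HFD mice. Asl lay between -1.29 and 1.10 SD units with a median of 0.0451 in MSXH mice, and between -2.05 and 1.19 with a median of 0.557 in HFD mice. Cps1 lay between -1.12 and 0.984 (median -0.0506) in MSXH mice and between -2.40 and 1.47 (median 0.388) in HFD mice. Arg1 lay between -1.25 and 1.15 (median 0.117) in MSXH mice and between -2.38 and 1.19 (median 0.597) in HFD mice. The groups overlapped for these genes. Mat1a lay between -1.32 and 0.889 (median -0.0734) in MSXH mice and between -2.22 and 1.25 (median 0.585) in HFD mice. Gpt2 lay between -1.23 and 1.16 (median 0.183) in MSXH mice and between -2.43 and 0.909 (median 0.485) in HFD mice.

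The lowest mice were the same for all 5 genes. MSXH mice 3, 4 and 8 had means over the 5 genes of -1.23, -1.03 and -0.886 SD units, and HFD mice 3 and 5 lay lower still, at -2.18 and -2.07. The highest means were 0.925 and 0.883 in MSXH mice 2 and 10, and 1.09 and 0.969 in HFD mice 9 and 10. Without HFD mice 3 and 5, 104 member pairs were called (background 1.59%), 93 of them among the 167. With the actin control regressed out of every gene, 158 pairs were called (background 3.18%), 146 of them among the 167. That control correlated with the members at r = -0.435 to 0.605, with a median of 0.231. The same measure of the Gapdh control, which was not regressed out, correlated with them at r = -0.471 to 0.607, with a median of -0.135.

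**Figure D4:**
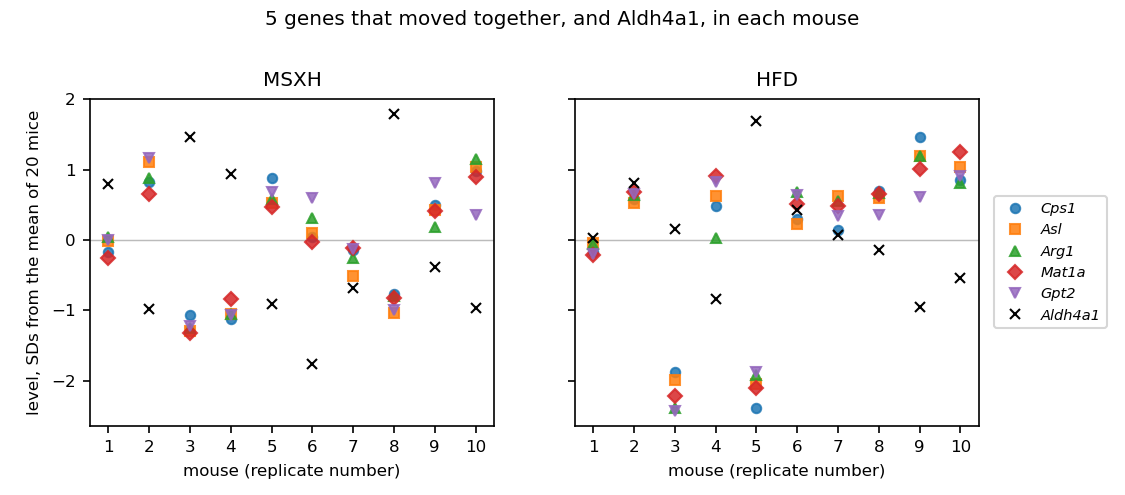
Levels of Cps1, Asl, Arg1, Mat1a, Gpt2 and Aldh4a1 (crosses) in 10 MSXH mice (left) and 10 HFD mice (right), in SDs from the mean of the 20 mice. The 5 coloured genes lie close together in each mouse and fall to about -2 in HFD mice 3 and 5. Aldh4a1 is high in MSXH mice 3, 4 and 8 and HFD mouse 5, where the others are low. In HFD mouse 3, with the lowest mean of the others, it lies at 0.159. In HFD mouse 2 it is high (0.810) and the others are high too (mean 0.614).

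Of the other urea cycle genes, Nags and Otc did not follow Cps1, Asl and Arg1 closely in the probe sets used. For Ass1 this depended on the probe set. Of the 15 pairs within the cycle, 4 were called, the 3 pairs of Cps1, Asl and Arg1 and the pair of Ass1 and Arg1 (r = 0.670). Nags was called with no other member and with 1.59% of all tested genes. Otc was called with Aldh4a1 (r = 0.717) and Pccb (r = 0.706), and its lowest r within the cycle, which did not pass, was -0.541. The Ass1 probe set used had a low mean (7.20 log2), and a brighter set that also names the pseudogene Gm5424 (mean 11.1) had r = 0.900 with Cps1, 0.919 with Asl and 0.863 with Arg1. Transcripts of Ass1 and Gm5424 cannot be told apart in that set. Its g was -0.473 (95% interval -1.36 to 0.416). Ass1 in the set used lay between -1.27 and 1.18 (median -0.106) in MSXH mice and between -1.57 and 1.65 (median 0.0627) in HFD mice.

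Beside the core genes stood Hpd, which handles the tyrosine product 4-hydroxyphenylpyruvate, Aass, which starts lysine breakdown, and the methyl cycle enzymes Ahcy and Bhmt. Hpd, Aass, Asl and Arg1 were each called with 18 of the 40 other members, and Cps1 and Mat1a with 17. Of all tested genes, 10.2%, 9.14%, 9.58%, 8.87%, 9.05% and 8.44% were called with these 6, in that order. The r of Aass was 0.922 with Asl, 0.910 with Hpd and 0.909 with Mat1a, and that of Hpd was 0.905 with Asl. Within the methionine group 9 of 15 pairs were called, and between it and the urea cycle 15 of 36. Between the tyrosine genes and the urea cycle 11 of 24 were called.

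Tat, the tyrosine aminotransferase long used as a marker of glucocorticoid action in liver, had the largest SD of the members on the deposited scale. It lay between -1.94 and 0.774 (median 0.462) in MSXH mice and between -2.29 and 1.14 (median 0.408) in HFD mice, with 6 of the 10 MSXH mice over the HFD median. It was called with 16 members, led by Arg1 (r = 0.890, rho = 0.690) and Gpt2 (r = 0.875, rho = 0.609). Without the 2 farthest mice these were 0.772 and 0.739.

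The genes most like Tat over the mice, of all tested genes, were Pfkfb2, which sets a regulator of glycolysis (r = 0.954), Tsc22d3, known as the glucocorticoid-induced leucine zipper (0.939), and the transcription factor Cebpd (0.927). Slc25a51 (0.915) and Cdip1 (0.908) followed. All 5 had an adjusted p of 0.0041 or less, and their r lay between 0.831 and 0.952 within MSXH mice and between 0.930 and 0.972 within HFD mice. Of the 15 regulators tested, 6 were called with Tat, against 4.81% of all tested genes. Those with r above 0 were Cebpb (0.868), Foxo1 (0.803), Ppargc1a (0.771) and Klf15 (0.770), factors of fasting metabolism. Those below 0 were the glucocorticoid receptor gene Nr3c1 (-0.743) and Foxa2 (-0.655). By rho Nr3c1 was not called with Tat (rho = -0.618, adjusted p = 0.0918). With Cps1, 3 of the 15 were called, Foxo1 (0.782), Cebpb (0.684) and Nr3c1 (-0.782), against 9.05% of all tested genes. Cebpb and Cps1 were not called by rho (0.528, adjusted p = 0.178), and their r was 0.377 within MSXH mice, 0.914 within HFD mice and 0.459 without the 2 farthest mice.

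Got1 lay between -1.35 and 0.854 (median -0.0824) in MSXH mice and between -1.90 and 1.90 (median 0.343) in HFD mice. The genes most like it were Retreg1 (r = 0.898), the fumarate hydratase gene Fh1 (0.887), Aass (0.872), Nrg4 (0.852) and the lysosomal protease gene Ctsl (0.847). Those most like Asl were Mat1a, Cps1 and Arg1, then Crcp (0.952) and Gpt2 (0.948), so 4 of its 5 nearest of 11728 genes were members.

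Another group was led by Gpt, the cytosolic alanine aminotransferase, with Prodh (r = 0.922), the glycine N-methyltransferase Gnmt (0.908) and Cth (0.889). Gnmt also followed Hal, the histidine ammonia-lyase (r = 0.908, rho = 0.899). Prodh lay between -0.839 and 1.23 (median 0.155) in MSXH mice and between -2.84 and 1.46 (median -0.127) in HFD mice. Its lowest value, like that of Gpt, was that of HFD mouse 3. Without HFD mice 3 and 5 the pairs of Gpt with Prodh, Gnmt and Cth had r of 0.874, 0.907 and 0.852. In the tyrosine and tryptophan pathways, Hgd and Kynu rose and fell together in the probe sets used (r = 0.900, rho = 0.871), with 0.912 within MSXH mice and 0.869 within HFD mice. The other probe set of each gene followed the set used less closely than that, at r = 0.47 for Hgd and 0.489 for Kynu.

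**Figure D5:**
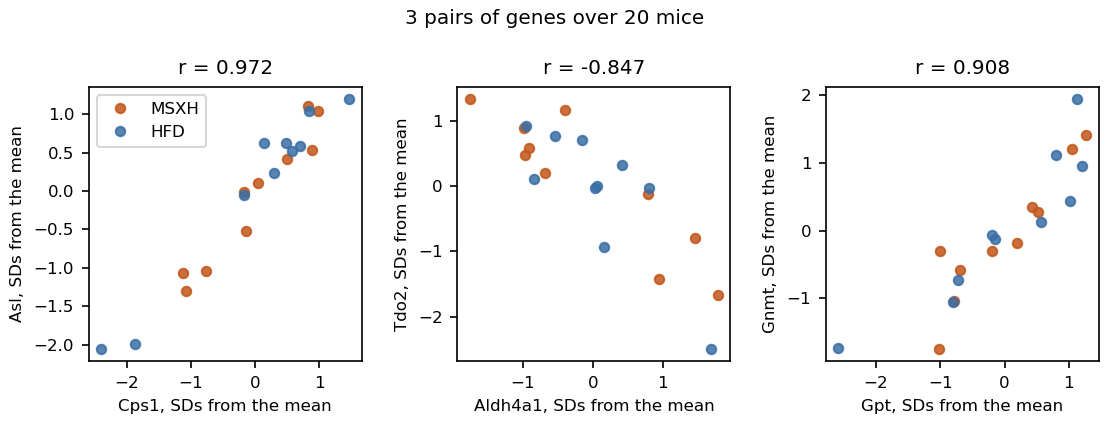
Levels of 3 pairs of genes in 20 mice (orange MSXH, blue HFD), in SDs from the mean of the 20 mice, with Pearson r above each panel. Cps1 and Asl and Gpt and Gnmt rise together in both diets, and Tdo2 falls as Aldh4a1 rises.

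The 4 called pairs below 0 all held Aldh4a1, with Tdo2 (r = -0.847, rho = -0.851, adjusted p = 0.0029), Cps1 (-0.684, rho = -0.711, adjusted p = 0.0316), Asl (-0.677, rho = -0.690) and Gpt2 (-0.660, rho = -0.636). Its r with Tdo2 was -0.900 within MSXH mice, -0.799 within HFD mice and -0.767 without the 2 farthest mice. Aldh4a1 is read by a single probe set of its own, with a low mean of 7.76 log2, where member means ran from 7.20 to 13.8. Aldh4a1 lay between -1.76 and 1.79 (median -0.536) in MSXH mice and between -0.951 and 1.69 (median 0.0486) in HFD mice. Tdo2 lay between -1.66 and 1.32 (median 0.337) in MSXH mice and between -2.49 and 0.924 (median 0.0598) in HFD mice. Without HFD mice 3 and 5 the pairs with Cps1 and Asl had r of -0.695 and -0.689 and no longer passed. The sign of the Tdo2 and Cps1 pairs turned with shifted medians, to 0.760 and 0.837, and that of Gpt2 with quantile normalization, to 0.00278.

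Aldh4a1 was also called with 11 of the 41 other breakdown genes tested (6.48% of all tested genes), all with r above 0, led by Sardh, the mitochondrial sarcosine dehydrogenase (r = 0.919), and Echs1, a hydratase of fatty acid and valine breakdown (0.796). Of the members, it followed Pccb (0.722), Haao (0.722), Otc (0.717) and Pcca (0.712). The lowest pairs that did not pass were those of Glud1 with Aass (r = -0.645, rho = -0.68, adjusted p = 0.0542) and with Kynu (r = -0.642, rho = -0.61). Aass lay between -1.74 and 1.03 (median -0.0579) in MSXH mice and between -1.88 and 1.82 (median 0.480) in HFD mice. Without HFD mice 3 and 5 the pair of Glud1 and Aass had r = -0.831 and passed. The sign of the pair of Glud1 and Kynu turned with shifted medians, to 0.882.

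Of the 54 pairs of branched chain and propionyl-CoA genes with urea cycle genes 1 was called, that of Otc and Pccb, and 3 of the 36 pairs among themselves were called. These were Mccc1 and Pcca (r = 0.878), Bckdha and Pccb (0.820) and Ivd and Pcca (0.754). These 9 genes were each called with 0.58% to 1.93% of all tested genes. Mccc1, Pcca and Ivd also followed Fah, the last enzyme of tyrosine breakdown, at 0.815, 0.778 and 0.709, and Ftcd of histidine breakdown at 0.809, 0.728 and 0.691. Fah and Ftcd had r = 0.829. With the median of the tested genes on each array, r was 0.577 for Fah, 0.522 for Ftcd and 0.523 for Mccc1. It was 0.436 for Pcca and 0.235 for Ivd, and over all members it ran from -0.372 to 0.577 with a median of 0.237. The part of the array median in these pairs was not tested. Glud1, Got2, Oat, Nags, Cbs, Bckdhb and Bckdk were called with no other member. Each was called with only 0.588% to 1.59% of all tested genes, so 0 of the 40 other members is near that share. How far the signals stood above background is unknown here, so a missing call does not show that a gene moved alone.

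Relations were also read by the place of the enzymes in the liver lobule. Oat, the pericentral member, was not called with any of the 6 periportal members measured, at r = 0.232 with Cps1, 0.247 with Asl, 0.272 with Arg1, 0.493 with Ass1, -0.0624 with Otc and 0.388 with Hal. It was called with 0.588% of all tested genes and with no other member. Of the 6 periportal markers tested, 4 were called with Cps1, against 9.05% of all tested genes. Pck1, the rate-setting enzyme of glucose synthesis, followed Cps1 (r = 0.760), whereas Cyp2f2 (-0.689), Ctsc (-0.710) and Hsd17b6 (-0.793) had r below 0 with it. By rho Cyp2f2, Ctsc and Hsd17b6 were called as well, and Pck1 was not (rho = 0.523, adjusted p = 0.185). The r of Pck1 was 0.488 within MSXH mice, 0.899 within HFD mice and 0.534 without the 2 farthest mice. Of the 10 pericentral markers tested, 1 was called with Cps1, the bile acid synthesis enzyme Cyp7a1 (0.730), which is near the share of 9.05%. Glul, the glutamine synthetase of the cells next to the central vein, had r = 0.198 with Cps1 and did not pass.

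Several transporters of urea cycle and amino acid substrates rose and fell with the core. Of 11 tested, 5 were called with Cps1, all with r above 0, where 9.05% of all tested genes were called with Cps1 in either direction. Slc25a15, the mitochondrial ornithine carrier, had r = 0.860 (rho = 0.910), with 0.952 within MSXH mice and 0.901 within HFD mice. Slc25a12, an aspartate-glutamate carrier, had 0.822, and the glutamate carrier Slc25a22 had 0.769. The cationic amino acid transporter Slc7a2 had 0.732 and the neutral amino acid transporter Slc38a4 0.663. Slc25a13, another aspartate-glutamate carrier, was not called with Cps1 (r = 0.358, adjusted p = 0.415), and its r was 0.053 without the 2 farthest mice. By rho Slc7a2 was not called with Cps1 (rho = 0.608, adjusted p = 0.0979), and its r was 0.534 without the 2 farthest mice. Of the other breakdown genes, 3 of 41 followed Cps1, Cdo1, the cysteine dioxygenase (0.872), Hsd17b10 of isoleucine breakdown (0.846) and Gldc of glycine cleavage (0.781). Another 3 ran against it, the kynurenine aminotransferase gene Kyat3 (-0.883), Ppm1k, the phosphatase that switches the branched chain dehydrogenase on (-0.787), and the choline dehydrogenase Chdh (-0.781). Of all 11728 tested genes, 459 were called with Cps1 with r above 0 and 602 with r below 0. Counts of 3 in 41 are too small to be set apart from these shares.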

How the data were processed

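Liver RNA of 20 mice was labelled from 200 ng per array with a 3' IVT kit, per the labels' protocols. The deposited values are log2 levels of 45101 probe sets. How the authors corrected, normalized and summarised them is not given in the sources used here. The median of an array over all probe sets other than controls lay between 6.505341 and 6.505517, differences wider than the SD of most genes. Of the probe sets 64 were controls, and the annotation names 1 gene for 34945, several for 932 and none for 9160. Each gene took its probe set of highest mean, and genes with a mean under 6.505 (the median of the probe sets) were left out.

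The diets were compared on the deposited log2 values with limma 3.58.1 in R 4.3.3 (lmFit, eBayes, Benjamini-Hochberg adjustment over 11728 genes). Correlations over mice were tested by 100000 two-sided permutations with numpy 2.4.6 and numba 0.67.0 in Python 3.11.15. Both were tested on simulated data. Figures were drawn with matplotlib 3.10.9. The labels call the arrays biological replicates and name no batch. No pair of arrays held identical values. The number of arrays limits the precision.

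The members and gene lists were chosen with earlier results of these data known. Values in both groups were given for members at an unadjusted p under 0.05, the 6 of largest SD and those of the 6 highest and 6 lowest pairs. Hgd and further pairs were chosen after their values were seen. Alternatives covered scaling, filter, probe set, variance model, measure of correlation, replicate number and mice left out. Leaving out HFD mice 3 and 5, regressing out the actin control and the shared Ass1 probe set were added after seeing the data.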

Additional observations from a re-analysis of the deposited data

Results flagged for a closer look

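Each of the 41 genes was read in 10 MSXH and in 10 HFD mice, which gives 82 sets of values. In 5 of them the most extreme mouse was set off from its neighbour by more than Dixon's 95% critical share of the range. Chance gives about 1 in 20, which is 4.1 sets of 82. In 4 of the 5 it was the same mouse, HFD mouse 3, at the low end. The gap was 0.471 of the range for Gpt, 0.468 for Oat, 0.532 for Bhmt and 0.566 for Bckdhb. In the other set, HFD mouse 2 was high for Mccc2, with a gap of 0.556. These genes share mice and move together in part, so the sets are not independent. Without HFD mouse 3, g of Oat was -1.91.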

How the results depend on the processing

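No member passed the adjusted test of the diets under any alternative run. The count at an unadjusted p under 0.05, 3 as deposited, was 0 once arrays were shifted to a common median and 0 with quantile normalization, and 2 to 4 when each mouse was left out in turn. With 1 mouse left out, g ran from -1.91 to -1.27 for Oat, from -1.27 to -0.907 for Kynu and from 0.887 to 1.39 for Glud1. With shifted medians the sign of g changed in 22 of 41 members, where the median g of all tested genes was 0.583. It changed in 11 of 26 with quantile normalization, in 2 of 41 with the probe set of largest SD and in 2 of 41 with the mean of probe sets. Under neither filter did it change.

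The count of member pairs called, 167 as deposited, was 475 with shifted medians, where 66.6% of all member-by-gene pairs were called, and 18 of 325 with quantile normalization. It was 104 without HFD mice 3 and 5, 0 in MSXH mice alone and 0 in HFD mice alone, where 10 mice remain. With the group means removed it was 174, and with the probe set of largest SD 161. Signs turned for Aldh4a1 with Tdo2 (0.760) and with Cps1 (0.837) and for Glud1 with Kynu (0.882) with shifted medians, and for Gpt2 with Aldh4a1 (0.00278) with quantile normalization. Shifting adds the same number to all genes of an array, so genes of small SD then share it.

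With the replicate block, 4 members had an unadjusted p under 0.05 and 0 pairs of members were called, with a smallest adjusted p of 0.0973 and 210 of 820 pairs at an unadjusted p under 0.05 (background 10.4%). The labels do not say that equal numbers pair mice. Same-numbered mice correlated at -0.136 to 0.373, over 0.1 in 3 of 10, and 2 mice correlated best with their own number.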
